A study of Mus musculus with 4 samples.

Results

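The Schlafen (Slfn) genes are a family of mouse genes that interferon can induce and that are best known from T cells and myeloid cells. The 7 members studied here were Slfn1, Slfn2, Slfn3, Slfn4, Slfn5, Slfn8 and Slfn9, of 32285 genes in the tables. They were taken by name, by a rule that used no measured value although earlier results of these data were known, and their transcripts were summed in each cell class of each library. All 7 were detected in every library.

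Schlafen proteins share a core domain that binds and, in some members, cleaves RNA. Slfn1 and Slfn2 are the short proteins of the family, Slfn3 and Slfn4 are of intermediate length, and Slfn5, Slfn8 and Slfn9 are long proteins that add a helicase-like part. Slfn2 keeps T cells and monocytes in a resting state and shields transfer RNAs from cleavage by angiogenin, Slfn1 slows T cell growth when overproduced, and Slfn4 is a gene of neutrophils and macrophages. Type I interferon acts through transcription factors that bind interferon-response elements in the promoters of its target genes.

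The libraries were made from bone marrow (BM) or spleen of C57BL/6J mice, 6-8 weeks old, that carried MA9 leukaemia, an acute myeloid leukaemia driven by the fusion protein MLL-AF9. The leukaemia cells carried either a hairpin that lowers Prmt9 when doxycycline is given (shPrmt9) or its control (Ctrl), and all animals drank doxycycline for 7 days, so the hairpin was in the leukaemia and not in the cells of the recipient. The recipients were wild type, and the study's methods state sublethal irradiation for such transplants. The 4 libraries (BM-Ctrl and Spleen-Ctrl for the control, BM-shPrmt9 and Spleen-shPrmt9 for the hairpin) each stood for 1 group and, by the study's account, came from 1 representative mouse per group. There were no replicates, so no test was made, every difference is between single libraries, and the 95% intervals cover counting error only. Where 2 levels or UMI counts of a class are joined by and, the control comes first.

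The members lie side by side on chromosome 11 of the mouse build GRCm38, within 264 kb from 82951349 to 83215154, in the order Slfn5, Slfn9, Slfn8, Slfn2, Slfn1, Slfn4 and Slfn3. Slfn9 and Slfn8 are on the minus strand and the others on the plus strand. Because the members moved together in several classes, their promoters are shown. RefSeq lists a window of 250 bases before to 50 bases after each start, and all 7 members were matched. The core of an interferon-response element (GAAA, any 2 bases, GAAA) was searched on both strands, as were the other motifs, and stood in the windows of Slfn5, Slfn8 and Slfn9, against 3.45% of 32544 promoter windows. The 9 letters ACTTCCTGG, which hold the core bound by ETS family factors, were chosen after the windows had been read, and stood in those of Slfn1, Slfn2, Slfn3 and Slfn4, against 0.842% of all windows. The letters TTCNNNGAA, a form of the gamma-activated site, stood in 0 of the 7 and in 8.33% of all windows. A match describes letters only and shows no binding.

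The stretches around these matches are given 5′ to 3′ on the gene's own strand, from RefSeq's table of build GRCm38.p6, with the match in capitals. Slfn5, Slfn9 and Slfn8 are the long members, and their capitals mark the interferon-response core or its reverse complement.
Slfn5, chr11:82951907-82951996, plus strand: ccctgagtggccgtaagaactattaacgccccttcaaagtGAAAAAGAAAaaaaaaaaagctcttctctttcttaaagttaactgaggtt
Slfn9, chr11:82991826-82991915, minus strand: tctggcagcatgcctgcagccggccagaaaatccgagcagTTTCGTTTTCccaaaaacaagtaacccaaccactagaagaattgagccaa
Slfn8, chr11:83020809-83020898, minus strand: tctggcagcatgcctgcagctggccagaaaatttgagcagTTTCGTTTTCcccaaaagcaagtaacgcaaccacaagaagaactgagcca

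In the short and intermediate members the capitals mark the ETS-like letters.
Slfn2, chr11:83065017-83065105, plus strand: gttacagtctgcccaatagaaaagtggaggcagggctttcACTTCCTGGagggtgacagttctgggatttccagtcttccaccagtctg
Slfn1, chr11:83116706-83116794, plus strand: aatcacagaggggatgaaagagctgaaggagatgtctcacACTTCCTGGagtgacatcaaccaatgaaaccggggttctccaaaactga
Slfn4, chr11:83175073-83175161, plus strand: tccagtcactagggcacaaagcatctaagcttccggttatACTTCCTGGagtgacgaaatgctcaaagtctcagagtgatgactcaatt
Slfn3, chr11:83191248-83191336, plus strand: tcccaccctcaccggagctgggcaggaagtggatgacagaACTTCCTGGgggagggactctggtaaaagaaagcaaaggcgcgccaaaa

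The match began 155 bases before the start in Slfn5, where it runs into a row of A, and 45 bases before it in Slfn9. In Slfn8 it was the same stretch in both windows that RefSeq lists, 136 and 48 bases before their starts. The ETS-like match began 55 bases before the start in Slfn2, 74 in Slfn1, 73 in Slfn4 and 42 in Slfn3. The stretches of Slfn8 and Slfn9 read almost alike around the match.

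The libraries held 8648 to 11315 cell barcodes and 84009744 to 188030429 unique molecular identifiers (UMIs, each standing for 1 counted transcript), and 7545 to 10175 cells were used, with medians of 6268 to 10377 UMIs. Each pair of libraries shared 15 to 35 barcodes. Prmt9, the hairpin's target, was counted at 10.52 and 6.91 CPM in marrow (counts per 1000000 UMIs), a ratio of 0.657, and at 13.03 and 7.09 CPM in spleen, a ratio of 0.544, both over all cells used. Among the MA9-like cells it was at 11.1 and 6.32 CPM in marrow and, on 30 and 28 UMIs in 35 and 160 cells, at 21.06 and 6.45 CPM in spleen. Over all cells used, the spleen libraries held 962 and 688 Prmt9 UMIs, so nearly all lay outside the MA9-like cells. The spleen ratio of 0.544 is therefore no measure of the hairpin in the leukaemia. Transcripts of 4 Y-linked genes outside the MA9-like cells came to 0 and 1 UMIs in the BM libraries and to 15477 and 14428 in the spleen libraries, so the marrow and the spleen of a group were not from 1 animal. Cells were gated by markers, and the ending -like says no more than that a cell holds them. In the class pairs of at least 50 cells a side, 0 defining markers were at 0, and in monocyte-like cells of Spleen-shPrmt9 1 of 7 was. Between 1.96% and 10.9% of cells took no class.

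In droplets, RNA set free by broken cells adds UMIs to cells that do not make a gene. Its level was estimated from globin, B cell, T cell and neutrophil genes in the classes that do not make them, and is given where it matters. The ends of the transcripts, where UMIs are counted, share few 90-base stretches between members. Of such windows in the last 500 bases, 1.46% of those of Slfn3 also lie in Slfn4, and none of any other member lies in another.

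Slfn2 held the most UMIs of the family, and Slfn3 the fewest. Slfn2 made up 55.3% and 51.2% of the family's UMIs in marrow and 69.8% and 56.2% in spleen, while Slfn3 made up 0.242% to 0.488%. UMIs are counted at transcript ends and were not divided by length. By class, the family came to 2197 CPM in mature neutrophil-like cells of BM-Ctrl, 950.2 CPM in immature neutrophil-like cells, 942 CPM in monocyte-like cells, 158 CPM in MA9-like cells and 25.0 CPM in erythroid-like cells of the same library. The MA9-like cells thus held less of it than the neutrophil-like and monocyte-like cells of the same marrow.

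**Figure D1:**
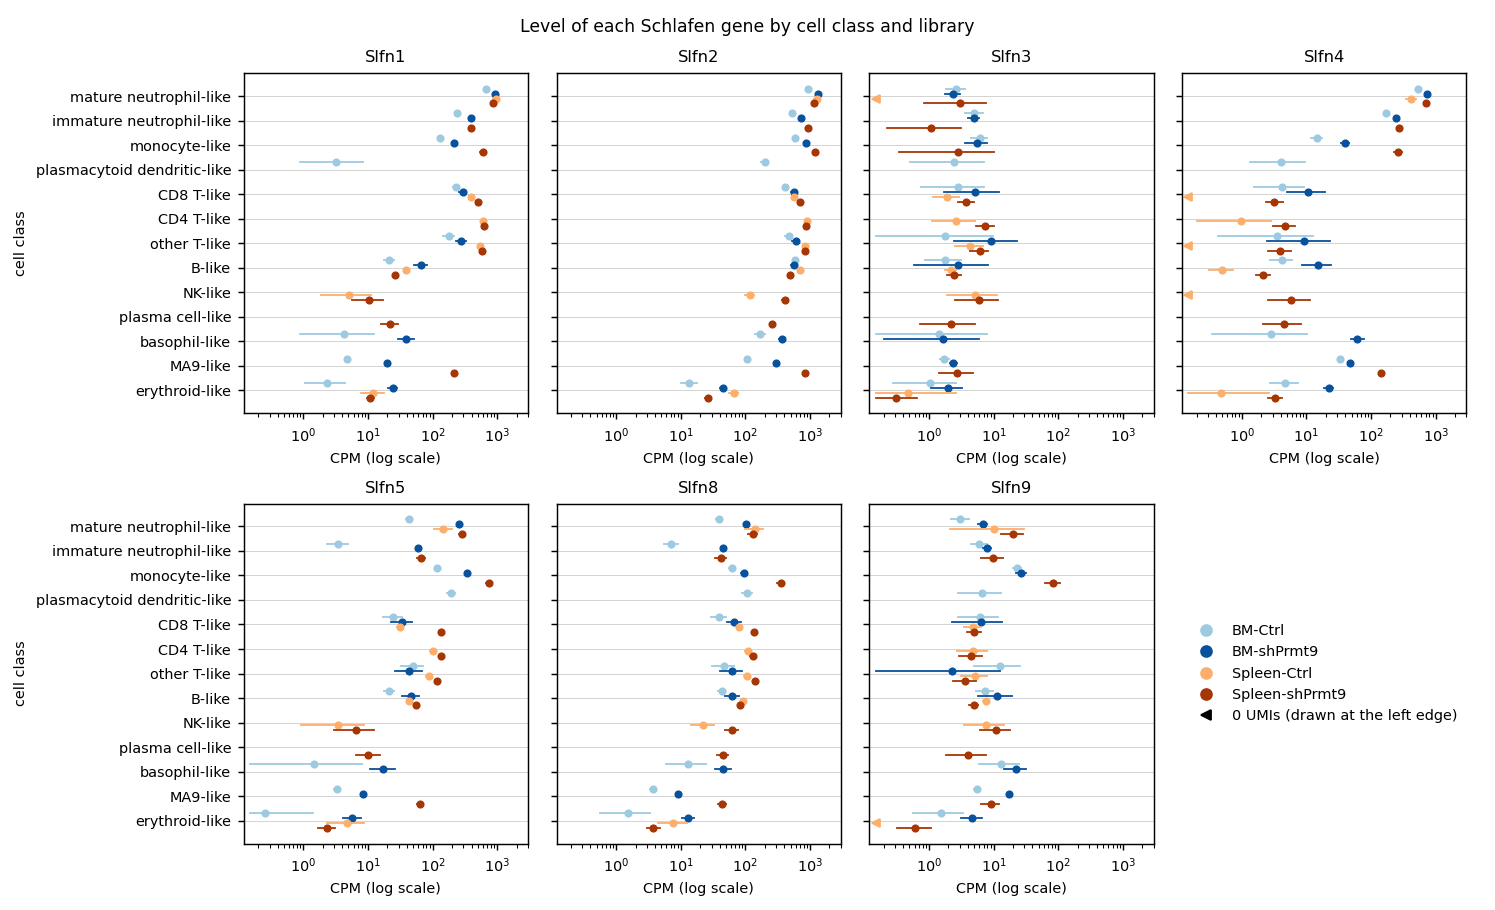
Level of the 7 members (CPM, log scale) in each cell class of at least 50 cells, with 1 point per library and 95% counting intervals. Slfn2 lies between 488 and 1350.0 CPM in the B-like, T-like, neutrophil-like and monocyte-like classes of the hairpin libraries, and Slfn4 passes 100 CPM only in neutrophil-like classes and in the monocyte-like (262 CPM) and MA9-like (142 CPM) classes of Spleen-shPrmt9.

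Slfn2, the guard of transfer RNAs, was the broadest member. It was highest in mature neutrophil-like cells of BM-Ctrl (922 CPM), BM-shPrmt9 (1350.0 CPM) and Spleen-Ctrl (1274 CPM), and in Spleen-shPrmt9 these cells (1160 CPM) and monocyte-like cells (1187 CPM) did not differ beyond their intervals. Next in BM-Ctrl came monocyte-like cells at 590.3 CPM and B-like cells at 580.2 CPM, whose intervals overlapped, then immature neutrophil-like cells at 519.5 CPM. CD4 T-like cells of Spleen-Ctrl held 892 CPM, other T-like cells 834 CPM, B-like cells 709 CPM and CD8 T-like cells 573 CPM. MA9-like cells of BM-Ctrl held 105 CPM, and NK-like cells of Spleen-Ctrl 116 CPM.

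Slfn1, its short relative, was a gene of neutrophil-like and T-like cells. Mature neutrophil-like cells held 659 and 908 CPM in marrow and 961 and 871 CPM in spleen, and were the highest class in all 4. CD4 T-like cells of spleen came next, at 608 CPM in the control and 618 CPM with the hairpin, where monocyte-like cells (594 CPM) overlapped them. B-like cells held 21.3 CPM in BM-Ctrl and 38.2 CPM in Spleen-Ctrl, and MA9-like cells of BM-Ctrl 4.79 CPM. B-like cells thus had high Slfn2 with low Slfn1, while T-like cells had both.

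Slfn4, the neutrophil and macrophage gene, was the most confined of the abundant members. Mature neutrophil-like cells held 528 and 740.0 CPM in marrow and 414 and 704 CPM in spleen. Immature neutrophil-like cells of marrow held 169.6 and 241 CPM, and MA9-like cells 33.2 and 47.3 CPM. In T-like and B-like classes it lay between 0 and 14.98 CPM, and in marrow 54.4% to 183% of those levels could be free RNA. Slfn3, which lies next to Slfn4, stayed at or below 9.10 CPM in every class of at least 50 cells, and there the intervals of neighbouring classes overlapped, so no order of classes is given.

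Slfn5, a long member, was highest in plasmacytoid dendritic-like cells in BM-Ctrl (192 CPM) and in monocyte-like cells in BM-shPrmt9 (344 CPM). Monocyte-like cells of BM-Ctrl held 115 CPM, mature neutrophil-like cells 42.5 CPM, immature neutrophil-like cells 3.45 CPM and MA9-like cells 3.35 CPM. In Spleen-Ctrl mature neutrophil-like cells (146 CPM) and CD4 T-like cells (101 CPM) did not differ beyond their intervals, and CD8 T-like cells held 31.3 CPM. Slfn8 was also highest in plasmacytoid dendritic-like cells of BM-Ctrl, at 107 CPM, with 61.03 CPM in monocyte-like, 39.0 CPM in mature neutrophil-like and 7.14 CPM in immature neutrophil-like cells. Slfn9 was highest in monocyte-like cells of BM-Ctrl (23.3 CPM) and BM-shPrmt9 (26.3 CPM), where basophil-like cells (12.95 and 22.2 CPM) did not differ beyond the intervals.

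The question of the design was what the hairpin in the leukaemia changed in each tissue. A member was counted as higher or lower at a ratio of at least 2 either way, shPrmt9 over Ctrl, with at least 20 UMIs over the pair, in class pairs of at least 50 cells on each side. In marrow, 54 of 63 pairs of a member and a class passed the minimum, 26 were higher with shPrmt9 and 0 were lower. In spleen, 43 of 49 passed, 9 were higher and 3 were lower, and these 3 were all in erythroid-like cells. Of all genes, 7.54% of gene and class pairs were higher and 5.66% lower in marrow, and 5.67% and 12.4% in spleen. These shares are over the genes that passed the same minimum of UMIs, and so are the shares of all genes given for each class, while 4 to 7 of the 7 members passed it in a class. The members share their cells, so their counts are not independent of each other.

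**Figure D2:**
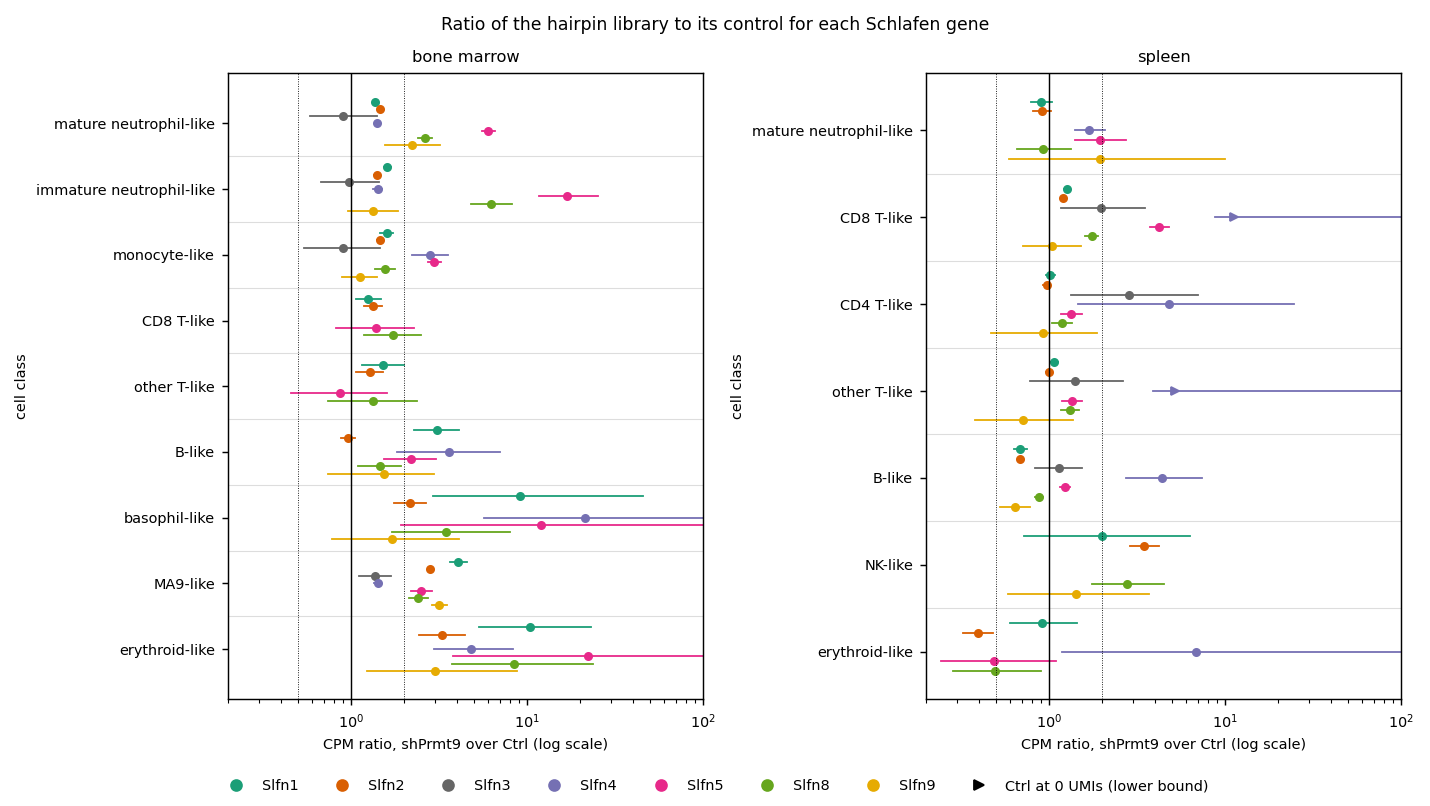
Ratio of CPM, shPrmt9 over Ctrl (log scale), of each member with at least 20 UMIs in each class pair, with 95% counting intervals, some cut at the right edge, dotted lines at 2-fold and arrows where the control had 0 UMIs. Slfn5 and Slfn8 stand to the right of the other members in both neutrophil-like classes of marrow, at 6.04 and 2.63 in mature and 16.9 and 6.23 in immature cells.

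In mature neutrophil-like cells of marrow, the 3 long members were higher with shPrmt9 and the other 4 were not. Slfn5 was at 42.5 CPM in BM-Ctrl and 257 CPM in BM-shPrmt9, a ratio of 6.04 (5.55–6.59). Slfn8 was at 39.0 and 102 CPM (2.63, 2.39–2.89), and Slfn9 at 3.05 and 6.75 CPM (2.22, 1.57–3.19). These 3 of 7 members compare with 5.16% of 10709 genes that were higher in this class. The abundant members differed less, with ratios of 1.46 for Slfn2, 1.38 for Slfn1 and 1.40 for Slfn4, and Slfn3 stood at 0.900 (0.584–1.41). The 3 higher members were the ones with the interferon-response core in their promoter window, and whether it bears on their ratios was not tested.

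Immature neutrophil-like cells of marrow had the largest ratios of Slfn5 and Slfn8 among neutrophil-like and monocyte-like classes. Slfn5 was at 3.45 CPM (29 UMIs in 729 cells) and 58.4 CPM (1275 UMIs in 1635 cells), a ratio of 16.9 (11.7–25.4). Slfn8 was at 7.14 and 44.5 CPM (6.23, 4.80–8.23). These were 2 of 7 members, against 4.43% of all genes. Slfn1, Slfn2 and Slfn4 had ratios of 1.61, 1.41 and 1.42, while Slfn9 had 1.33 (0.968–1.86). The free-RNA estimate came to 31.2% of the Slfn5 level in BM-Ctrl and to 5.40% in BM-shPrmt9. Another scaling by trimmed mean of M-values (TMM) moved all log2 ratios by 0.25 in immature and 0.23 in mature neutrophil-like cells and left these directions as they were, except that of Slfn3, which passed to 1.17 and 1.06.

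Most mature neutrophil-like cells of the BM libraries lay in different clusters, 76.4% in cluster 4 in BM-Ctrl and 67.4% in cluster 23 in BM-shPrmt9, with 19.8% and 27.3% in cluster 3. In cluster 3, which both libraries shared (792 and 1362 cells), Slfn5 was at 17.5 and 166 CPM, a ratio of 9.49 (7.71–11.8). In cluster 4, with 68 cells of BM-shPrmt9, its ratio was 2.30 (1.47–3.44), and in cluster 23, with 87 cells of BM-Ctrl, 1.59 (1.26–2.05). Within these clusters the direction of Slfn5 was kept, but the size ranged widely. Slfn8 had ratios of 3.81, 2.10 and 1.16 in clusters 3, 4 and 23. Slfn9, which rested on few UMIs, had 3.29 in cluster 3 and 0.280 (0.142–0.628) in cluster 23. Slfn4 had 1.32 in cluster 3, 2.02 (1.78–2.29) in cluster 4 and 0.848 (0.764–0.944) in cluster 23, so its direction was not kept. Slfn1 and Slfn2 were higher with shPrmt9 in each of these clusters. In the shared immature cluster 5 (481 and 1214 cells) Slfn5 was at 1.97 and 57.2 CPM and Slfn8 at 5.70 and 42.2 CPM.

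**Figure D3:**
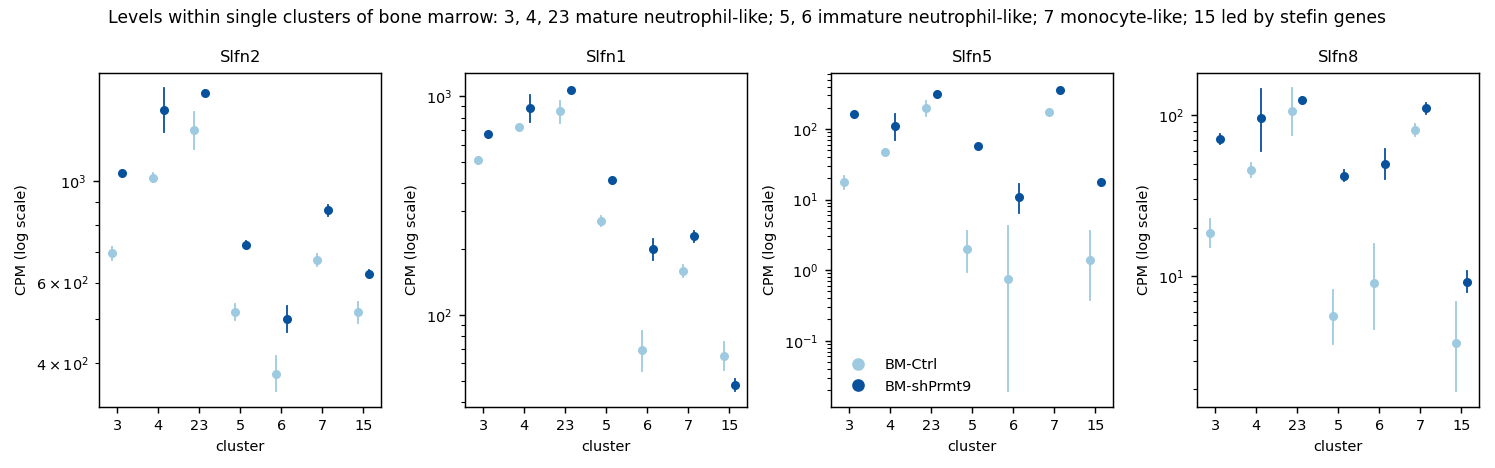
Levels (CPM, log scale, with 95% counting intervals) of Slfn2, Slfn1, Slfn5 and Slfn8 within 7 marrow clusters (6 of neutrophil-like or monocyte-like cells and cluster 15, led by stefin genes), each with at least 50 cells of both libraries. Slfn5 is higher in BM-shPrmt9 in all 7 clusters drawn, and Slfn1 is lower in cluster 15 (65.0 and 47.6 CPM).

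Monocyte-like cells of marrow started from higher Slfn5. It was at 115 CPM in BM-Ctrl and 344 CPM in BM-shPrmt9, a ratio of 2.98 (2.75–3.23), and Slfn4 was at 14.4 and 40.2 CPM (2.80, 2.22–3.55). These 2 of 7 members compare with 6.76% of all genes. Of the Slfn4 levels, 31.3% and 23.5% could be free RNA. Slfn1, Slfn8 and Slfn2 had ratios of 1.60, 1.56 and 1.47, and Slfn9 1.13. Both libraries had most of these cells in cluster 7 (81.9% and 90.4%), where the ratio of Slfn5 was 2.08 (1.93–2.24).

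In MA9-like cells of marrow, the class gated for the leukaemia, 5 of 7 members were higher, against 13.1% of 14173 genes. The hairpin itself was not measured in these cells. Slfn2 was at 105 CPM in 1515 cells of BM-Ctrl and 296 CPM in 1870 cells of BM-shPrmt9, a ratio of 2.81 (2.75–2.88). Slfn1 was at 4.79 and 19.6 CPM (4.09, 3.68–4.54), Slfn9 at 5.51 and 17.5 CPM (3.18, 2.87–3.51), Slfn5 at 3.35 and 8.43 CPM (2.52, 2.21–2.88) and Slfn8 at 3.70 and 8.94 CPM (2.42, 2.13–2.75). Slfn4 and Slfn3 had ratios of 1.43 and 1.37. Here members with and without the interferon-response core were mixed, and the largest ratio was that of Slfn1. Free RNA could give 58.9% and 27.7% of the Slfn1 levels, 15.7% and 20.03% of those of Slfn5, and 7.84% and 4.57% of those of Slfn2.

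The MA9-like cells also lay in different clusters, mostly 14 and 0 in the control and 26 and 15 with shPrmt9. Cluster 15, which was led by stefin genes such as Stfa1, Stfa2 and Stfa3 and by the granule genes Olfm4 and Fcnb, with no MA9 marker among its 10 leading genes, held far more Slfn2 than the others in either library. Its level was 516 CPM in cluster 15, 117 CPM in cluster 14 and 49.3 CPM in cluster 0 of BM-Ctrl, and 628 CPM in cluster 15 and 235 CPM in cluster 26 of BM-shPrmt9. Within cluster 15 (114 and 640 cells) the ratio of Slfn2 was 1.22 (1.15–1.28) and that of Slfn1 0.732 (0.625–0.862), while Slfn5 was at 1.41 and 17.6 CPM (12.5, 4.84–46.1). Among MA9-like cells with a score for neutrophil granule genes under 0.3 (1398 and 1224 cells), Slfn2 was at 94.2 and 238.3 CPM, a ratio of 2.53 (2.46–2.60), and Slfn1 had a ratio of 3.20 (2.83–3.62). Among those above that score (117 and 646 cells), the ratios were 1.36 (1.29–1.44) for Slfn2 and 1.83 (1.47–2.30) for Slfn1, both under 2-fold. The share of granule-rich cells, 117 of 1515 against 646 of 1870, therefore moved with the class level of Slfn2 and Slfn1. How far it sets the ratios of the class was not tested beyond these values.

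Lymphocyte-like cells of marrow had smaller ratios of Slfn2 than the other marrow classes compared, though some intervals overlapped. B-like cells had Slfn2 at 580.2 CPM in BM-Ctrl and 560.0 CPM in BM-shPrmt9, a ratio of 0.965 (0.884–1.05). Slfn1 was at 21.3 and 65.6 CPM (3.08, 2.27–4.14), Slfn5 at 21.0 and 45.9 CPM (2.19, 1.54–3.06) and Slfn4 at 4.13 and 14.98 CPM (3.63, 1.82–7.03). These 3 of 7 members, against 4.6% of all genes, rested on 102 B-like cells in BM-shPrmt9. With doublets kept, the ratios of Slfn1 and Slfn5 were 1.96 and 1.82. With the minimum of UMIs, 0 of 7 members passed 2-fold in CD8 T-like cells of marrow, where 4.5% of genes did, or in other T-like cells, where 4.02% did. In CD8 T-like cells Slfn1 was at 231 and 291 CPM, Slfn2 at 417 and 559.7 CPM and Slfn8 at 38.9 and 67.2 CPM (1.73, 1.19–2.52). Only 4 members had 20 UMIs there, and the depth was too low to show a difference in the others.

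In spleen, CD8 T-like cells showed Slfn5 at 31.3 CPM in 997 cells of Spleen-Ctrl and 133 CPM in 1107 cells of Spleen-shPrmt9, a ratio of 4.24 (3.77–4.78). Slfn4 had 0 and 44 UMIs, at least 11.2-fold higher against a floor of 3 counts in the control library (8.73 at the lower end of the counting interval), and 41.7% of the latter level (3.21 CPM) could be free RNA. These were 2 of 7 members, against 4.87% of all genes. Slfn8 was at 78.8 and 138 CPM (1.75, 1.61–1.90), Slfn1 at 391 and 497 CPM (1.27, 1.22–1.32) and Slfn2 at 573 and 691 CPM (1.20, 1.17–1.24). Most of these cells lay in cluster 22 in the control (97.6%) and in cluster 2 with shPrmt9 (80.2%), so no shared cluster of 50 cells gave a value.

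In CD4 T-like cells of spleen the main members differed little. Slfn2 was at 892 and 864 CPM, a ratio of 0.969 (0.925–1.02) that became 1.07 by TMM, and Slfn1 at 608 and 618 CPM (1.02, 0.961–1.08). Slfn5 was at 101 and 135 CPM (1.34, 1.17–1.53). Slfn3, with 8 and 43 UMIs, and Slfn4, with 3 and 27, had ratios of 2.85 (1.33–7.02) and 4.78 (1.47–24.6), which were 2 of 7 members against 4.38% of all genes. Other T-like cells had 1 of 7, against 4.71%, which was Slfn4 with 0 and 26 UMIs, at least 5.17-fold higher against the same floor (3.91 at the lower end of the interval), and 30.9% of its level with the hairpin could be free RNA. Most CD4 T-like and other T-like cells lay in cluster 22 in the control (96.6% and 96.0%) and in cluster 34 with shPrmt9 (83.4% and 79.9%). The ratio of Slfn5 in CD8 T-like cells of spleen lay above those in all other T-like classes compared, by intervals that did not overlap.

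B-like cells of spleen had lower Slfn2 with the hairpin, at 709 CPM in 5751 cells of Spleen-Ctrl and 488 CPM in 1453 cells of Spleen-shPrmt9, a ratio of 0.688 (0.675–0.701). Slfn1 and Slfn9 had ratios of 0.688 (0.632–0.748) and 0.645 (0.529–0.782), Slfn8 0.877 and Slfn5 1.24 (1.16–1.32). Slfn4, at 0.491 and 2.17 CPM, was the 1 member of 7 past 2-fold, against 4.22% of all genes, and 26.3% and 50.1% of its levels could be free RNA. TMM moved all log2 ratios of this class by 0.18 and gave 0.780 for Slfn2, 0.780 for Slfn1, 0.731 for Slfn9 and 0.994 for Slfn8. The cells lay in clusters 30 and 33 in the control and in 31 and 32 with shPrmt9.

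NK-like cells of spleen, 79 in the control and 139 with the hairpin, had little Slfn1 and Slfn5 but a large difference in Slfn2. Slfn2 was at 116 and 403 CPM, a ratio of 3.48 (2.88–4.23), and Slfn8 at 22.3 and 61.6 CPM (2.76, 1.76–4.47). These were 2 of the 4 members that passed the minimum, against 10.5% of all genes. Both libraries had these cells in cluster 27, and there the ratios were 3.76 and 2.91. The free-RNA estimate came to 24.7% of the Slfn2 level in the control and to 4.12% with the hairpin.

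In mature neutrophil-like cells of spleen, 68 and 133 cells, 0 of the 6 members that passed the minimum were past 2-fold, against 7.33% of all genes. By TMM, Slfn4, Slfn5 and Slfn9 had ratios of 2.40, 2.74 and 2.74, so the count depended on the scaling. Slfn5 was at 146 and 283 CPM (1.94, 1.41–2.72) and Slfn4 at 414 and 704 CPM (1.70, 1.40–2.07). Slfn1, Slfn2 and Slfn8 had ratios of 0.907, 0.911 and 0.927, which TMM, with a shift of 0.50 in log2, turned to 1.28, 1.29 and 1.31, so no direction is given for them. Within cluster 21 (62 and 209 cells) Slfn5 was at 196 and 201 CPM. The difference in Slfn5 seen in neutrophil-like cells of marrow was thus not detected within the shared cluster of spleen, where the interval ran from 0.750 to 1.43.

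Basophil-like cells of marrow, 80 and 90 cells, had 5 of 7 members higher, against 5.63% of all genes. Slfn2 was at 169.8 and 368 CPM (2.17, 1.77–2.68), under 2-fold in 3 of 12 alternatives (lowest 1.74, after free RNA was subtracted), and Slfn8 at 12.95 and 45.2 CPM (3.49, 1.71–8.04). Slfn1 had 3 and 48 UMIs, Slfn4 2 and 75 and Slfn5 1 and 21, with ratios of 9.14 (2.95–45.9), 21.4 (5.73–180.2) and 12.0 (1.93–496). Free RNA could give 95.9% of the Slfn1 level, 50.9% of that of Slfn4 and 68.3% of that of Slfn5 in BM-shPrmt9, and 10.0% of these cells lay in cluster 8, which is not basophil-like. Of the 5, Slfn2 and Slfn8 stood well above that level in both libraries.

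Erythroid-like cells served as the reference for free RNA, since red cell precursors are not known for these members. In marrow 6 of 7 members were higher with the hairpin, against 17.7% of all genes, and in spleen 1 was higher, against 6.23%, and 3 were lower, against 32.1%. The 1 higher in spleen was Slfn4, at 6.82, which was at 1.76 without the cell with most UMIs, and the free-RNA estimate came to 56.7% and 54.8% of its levels. Slfn2 was at 13.6 and 44.7 CPM in marrow and at 65.9 and 26.02 CPM in spleen, and the free-RNA estimate came to 80.1% and 115% of these levels in marrow and to 97.1% and 114% in spleen. Slfn1 and Slfn5 also lay near or below their estimates, at 85.5% to 161% and 91.0% to 270%, and no expression is read from these values. In marrow the estimate came to 38.4% and 24.8% of the levels of Slfn8 (1.54 and 13.07 CPM) and to 18.4% and 30.9% of those of Slfn9 (1.54 and 4.64 CPM), so part of these was not covered by it.

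**Figure D4:**
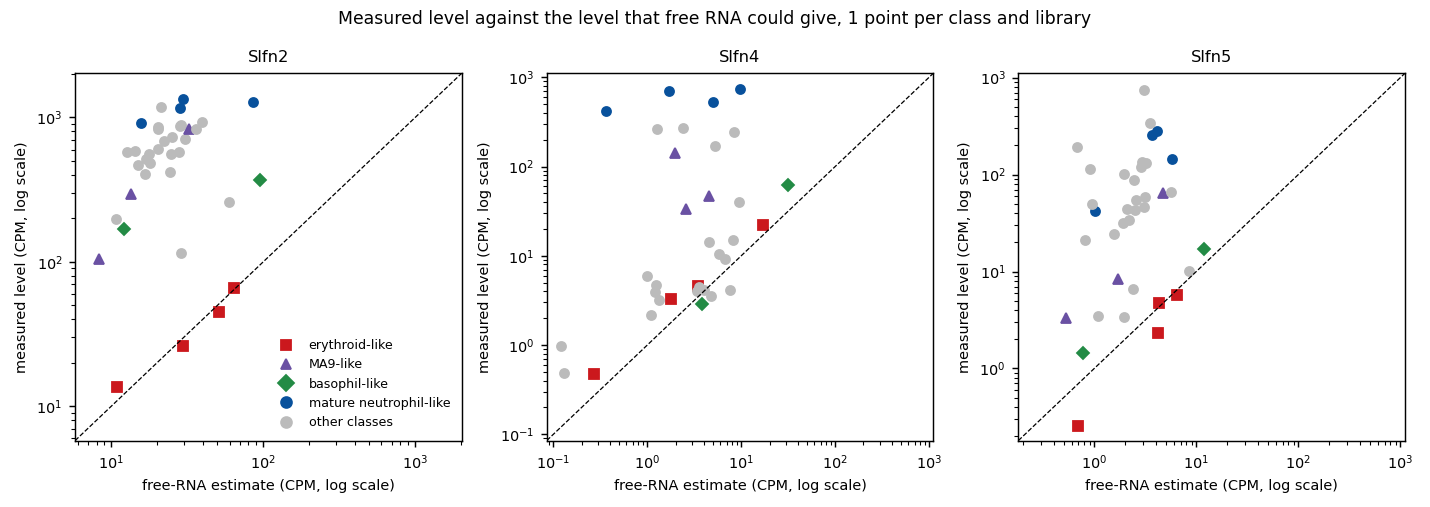
Measured level of Slfn2, Slfn4 and Slfn5 against the level that free RNA could give (both CPM, log scale), with 1 point per class and library of at least 50 cells and a dashed line where both are equal. Erythroid-like points of Slfn2 lie at the line (80.1% to 115%), and mature neutrophil-like points lie far above it.

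Classes with fewer than 50 cells on a side are given as values only. MA9-like cells of spleen, 35 in Spleen-Ctrl and 160 in Spleen-shPrmt9, had Slfn2 at 273 and 826 CPM (3.03, 2.72–3.37), Slfn1 at 30.2 and 217 CPM (7.18, 5.29–9.99), Slfn4 at 21.1 and 142 CPM and Slfn5 at 10.53 and 64.0 CPM. Of the 160 cells, 88.8% lay in the stefin-led cluster 15, against 28.6% of the 35, and this cluster also held 58.2% of the immature neutrophil-like cells of Spleen-shPrmt9. Monocyte-like cells of spleen, 13 and 50 cells, had Slfn5 at 299 and 740.1 CPM (2.48, 1.76–3.59). Plasmacytoid dendritic-like cells of marrow, 117 and 18 cells, had Slfn5 at 192 and 235 CPM (1.22, 0.888–1.66). In this class, which had the highest control level in marrow, a difference could thus not be seen with these few cells.

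The share of cells with a UMI was compared after each cell of at least 1500 UMIs had been thinned to 1500, which sets these cells to the same depth. Cells with fewer UMIs were left out of the thinned shares, while unthinned shares are over all cells. Slfn5 was seen in 5.24% (4.49–6.07) of mature neutrophil-like cells of BM-Ctrl and 28.4% (27.0–29.8) of those of BM-shPrmt9, where the unthinned shares were 8.68% and 56.2%. In immature neutrophil-like cells it was seen in 0.417% and 8.45%, in monocyte-like cells in 17.3% and 39.5%, and in CD8 T-like cells of spleen in 5.52% and 17.0%. More cells, and not a few cells with many UMIs, thus held Slfn5 in the hairpin libraries, and the cell with the most of them held 0.273% of the UMIs of mature neutrophil-like cells of BM-shPrmt9. Slfn2 was seen in 16.6% and 36.9% of MA9-like cells of marrow. In erythroid-like cells, with median depths of 4354 to 11398.5 UMIs, Slfn5 was seen in 0% to 0.533% and Slfn2 in 1.09% to 6.83% of thinned cells, so the shares above lay over that background except the 0.417%, which lay within it.

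Genes that interferon induces were counted next to the family, from a list of 40 without a Schlafen gene, of which 38 are in the tables. In marrow 249 of 318 gene and class pairs of the list were higher and 0 lower, and in spleen 155 of 253 and 0. In mature neutrophil-like cells of marrow 32 of 38 were higher, with a median log2 ratio of 2.12 beside -0.23 for all genes, while Slfn5 had 2.60, Slfn8 1.39 and Slfn2 0.55. In immature neutrophil-like cells 33 of 38 were higher, and in MA9-like cells 29 of 38, with a median of 1.78. In CD8 T-like cells of spleen 25 of 38 were higher, with a median of 1.51, in B-like cells of spleen 25 of 38 with 1.24, and in mature neutrophil-like cells of spleen 15 of 37 with 0.65. Of the members, 26 of 54 pairs in marrow and 9 of 43 in spleen were higher. In marrow Slfn5 stood above the list's median in both neutrophil-like classes and in monocyte-like, basophil-like and erythroid-like cells. In basophil-like and erythroid-like cells its ratio rested on 1 control UMI each. Free RNA could give most of its level with shPrmt9 there, so their place beside the list is not read. Slfn5 stood below the median in MA9-like (1.33 beside 1.78), B-like, CD8 T-like and other T-like cells of marrow. In spleen it stood above the median in CD8 T-like and mature neutrophil-like cells. B-like, CD4 T-like, other T-like and erythroid-like cells of spleen had it below the median.

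**Figure D5:**
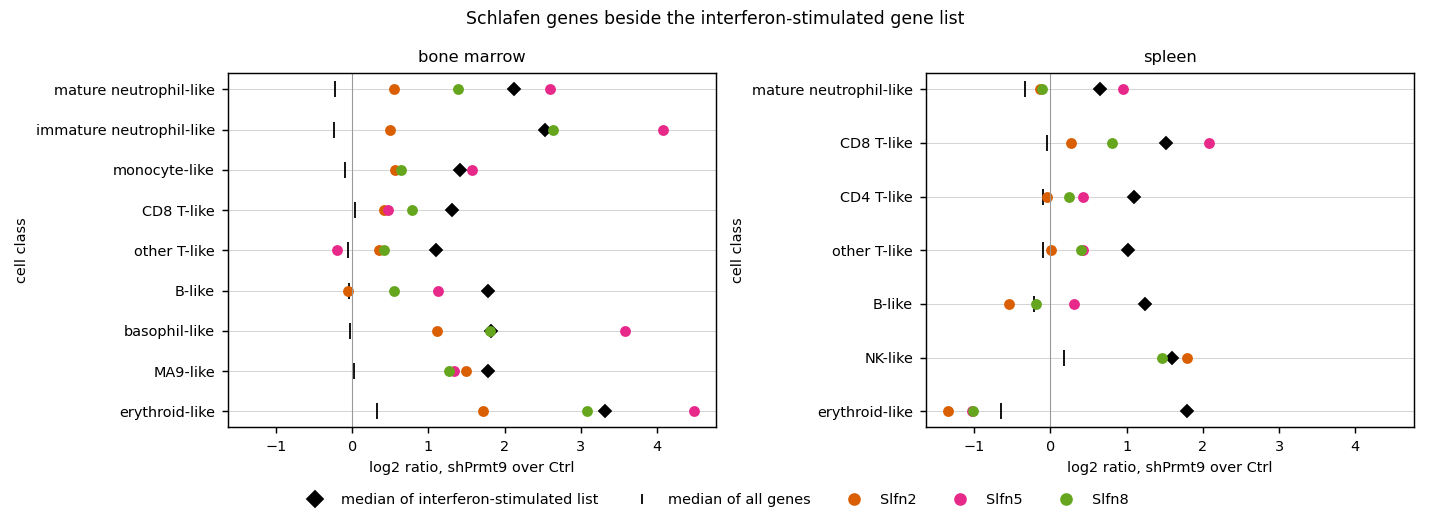
Log2 ratio, shPrmt9 over Ctrl, of Slfn2, Slfn5 and Slfn8 beside the median of the interferon-stimulated list and of all genes in each class pair. In B-like cells of spleen the list's median is 1.24 while Slfn2 is at -0.54.

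Single genes of that list give the scale. Isg15, a ubiquitin-like modifier, was at 174 CPM in mature neutrophil-like cells of BM-Ctrl and 699.7 CPM in those of BM-shPrmt9 (4.02, 3.85–4.20), and at 16.4 and 95.9 CPM in MA9-like cells of marrow. Ifit3, which acts against viral RNA, was at 26.9 and 429 CPM in mature neutrophil-like cells, a ratio of 15.9. Irf7, a factor that drives interferon genes, was at 64.7 and 404 CPM, Usp18, which removes Isg15 from proteins, at 16.1 and 79.6 CPM, Oasl2, a relative of the oligoadenylate synthetases, at 119 and 510.3 CPM, and Rtp4 at 98.6 and 499 CPM. In B-like cells of spleen, where Slfn2 was lower, Isg15 was at 31.2 and 412 CPM and Irf7 at 31.6 and 259 CPM. In mature neutrophil-like cells of spleen Isg15 was at 547 and 1097 CPM, while Oasl2 had a ratio of 0.942 (0.795–1.12).

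Apart from the interferon ligands in spleen, the other gene lists had smaller shares higher with shPrmt9. They are to be read beside the 7.54% higher and 5.66% lower of all gene and class pairs in marrow and the 5.67% and 12.4% in spleen. Of 14 genes of type I interferon signalling, 22 of 116 gene and class pairs were higher and 5 lower in marrow, and 7 of 94 (7.45%) and 14 (14.9%) in spleen, where the shares were close to those of all genes. In MA9-like cells of marrow the higher ones were Sting1 and Socs1. Of 9 NF-kappaB genes, 15 of 78 pairs were higher and 0 lower in marrow, and 14 of 63 and 9 in spleen, where Nfkb2, Relb, Nfkbia and Tnfaip3 were higher in CD8 T-like cells and 6 genes were lower in mature neutrophil-like cells. Of 8 interferon ligand genes, Ifng alone reached the minimum of UMIs, in 5 class pairs of spleen, and was higher in 4 and lower in CD8 T-like cells.

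The resting state of lymphocytes and the cleavage of transfer RNA are the processes tied to Slfn2. Of 10 genes of lymphocyte quiescence, 5 of 84 pairs were higher and 5 lower in marrow (5.95% each, near the shares of all genes), and 1 of 66 and 15 in spleen, 6 of these 15 in erythroid-like cells, where 32.1% of all genes were lower and the TMM shift was 0.83. In NK-like cells, where Slfn2 had a ratio of 3.48, Tob1 was higher and 0 were lower. Of the 3 genes tied to angiogenin, Ang was higher in MA9-like and immature neutrophil-like cells of marrow and lower in B-like cells of spleen. Rnh1, the inhibitor of angiogenin, was higher in mature neutrophil-like cells of spleen. Rnh1 was also counted as higher in NK-like cells of spleen, at a log2 ratio of 1.003. The TMM shift of -0.15 in that class took this under 2-fold.

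Across the 37 pools of a class in a library with at least 50 cells, the genes whose level was most like that of each member were found by Pearson's r of log2(CPM + 1) among 14366 genes. The pools share libraries, cells of like kinds and depth, so r is a description only. For Slfn5 they were Slfn8 (r = 0.89), Znfx1 (0.89) and Ifit2 (0.88), for Slfn8 Tap1 (0.93), Irf2 (0.92) and Trim30a (0.92), and for Slfn4 Mcemp1 (0.96), Clec4a2 (0.94) and Lcn2 (0.94). For Slfn1 they were Fas (0.89), Samhd1 (0.84) and Ddx60 (0.84), for Slfn2 Mcl1, Setd1b and Lgals8 (0.91 each), and for Slfn9 Mfsd1 (0.86), Atox1 (0.85) and Vim (0.85). Slfn3 had no gene above 0.72, by Capn10. Among the members, Slfn5 and Slfn8 were most alike, Slfn1 and Slfn2 had r = 0.81, and Slfn4 had between -0.07 and 0.43 with the others.

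Of the other genes named for the family, Slfnl1 and Slfn5os, which lies antisense to Slfn5, had 0 to 3 UMIs in a library. Slfn14, a long relative that cleaves RNA at ribosomes, lies beside the members on chromosome 11 from 83275110 to 83286726. In erythroid-like cells it was at 282 and 453 CPM in marrow and at 205 and 128 CPM in spleen. In the other classes of at least 50 cells it did not exceed 5.30 CPM, so the class with the least Slfn2 was the one that held Slfn14.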

How the data were processed

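The authors deposited raw UMI counts per gene and barcode for 4 droplet libraries (3′ chemistry v2 per the labels), on build mm10. The file headers name Cell Ranger 6.0.2 and the submitters' processing notes 6.1.1. Cells with under 200 genes or over 20% mitochondrial UMIs were removed, as were the cells with the highest Scrublet scores (scanpy 1.11.5), in a number set by the loading of each library (520 to 999), as doublets. Cells took the class whose marker genes scored highest, with at least 3 markers seen. Leiden clusters, made without the Schlafen genes and the genes of the lists, served as a check. The gate for neutrophil progenitors mixed MA9-like and other clusters and was not used.

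Counts were summed per class and library and scaled to CPM, the intervals are exact Poisson and exact conditional binomial (scipy 1.17.1), and shares carry exact Clopper-Pearson intervals. A library at 0 took a floor of 3 counts. Free RNA was the library's level times the highest share that foreign genes reached in a class. Sources were used where their class held at least 2% of the library's UMIs, a rule set after levels had been seen, as the ETS-like motif was after the promoters. Scaling by TMM (edgeR 4.0.16) and median of ratios (DESeq2 1.42.0) were alternatives, and no model was fitted. Scripts were tested on simulated data. Promoters are from RefSeq and positions from GENCODE, both on GRCm38.

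Named genes were the 7 members, others named Slfn, the 3 genes most like each member, Prmt9, 6 examples of the interferon-stimulated list, and genes of the other 5 lists past 2-fold, of which some are not reported here. The members and lists were chosen with earlier results of these data known.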

Additional observations from a re-analysis of the deposited data

Results flagged for a closer look

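In erythroid-like cells 3 members were past 2-fold in opposite directions in the tissues. Slfn2 had a ratio of shPrmt9 over Ctrl of 3.28 in marrow and 0.395 in spleen, Slfn5 of 22.4 and 0.490, and Slfn8 of 8.46 and 0.493. The difference between the tissues was not tested, since each rests on single libraries. The free-RNA estimate came to 80.1% to 115% of the level of Slfn2, 91.0% to 270% of that of Slfn5 and 24.8% to 123% of that of Slfn8 in this class, and in spleen the TMM shift of this class was 0.83 in log2.

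Slfn14, which is not among the members, was high in erythroid-like cells, at 282 and 453 CPM in marrow (Ctrl, then shPrmt9) and at 205 and 128 CPM in spleen. Its ratio was 1.60 (1.497–1.72) in marrow and 0.628 (0.567–0.697) in spleen. TMM moved log2 ratios of this class by -0.26 in marrow and by 0.83 in spleen, which is more than the log2 ratio of -0.67 there, so no direction is given for spleen.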

How the results depend on the processing

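Every ratio compares single libraries, so no setting can show how much animals of a group vary. The count of members higher with shPrmt9 lay between 20 and 29 over 12 alternatives in marrow (26 as reported) and between 6 and 14 in spleen (9 as reported, 14 with doublets kept). The count of lower members in marrow was 1 with no minimum of UMIs, against 0. In spleen the 3 lower members became 0 with classes from clusters, with doublets kept, without globin and mitochondrial genes in the total, by TMM, by median of ratios, by each cell's own CPM, after subtracting free RNA and without the erythroid-like class, 1 with cells held to 500 genes or more and 10% mitochondrial UMIs or less, or without the cell with most UMIs, and 5 with no minimum. They turned direction in erythroid-like cells of spleen, where Slfn8 was at 2.93 with classes from clusters, Slfn5 at 1.45 with doublets kept, and Slfn2, Slfn5 and Slfn8 at 1.14, 1.60 and 2.32 by each cell's own CPM. The cause was not tested. Of the interferon-stimulated list, 1 pair was lower in spleen with no minimum, against 0.

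In both neutrophil-like classes of marrow, monocyte-like and MA9-like cells of marrow, and CD8 T-like and NK-like cells of spleen, every member past 2-fold in the report stayed past 2-fold under each alternative that gave it a value (9 for Slfn4 in CD8 T-like cells, 12 or 13 for the others), with Slfn5 between 5.42 and 7.11 in mature and 13.9 and 30.6 in immature neutrophil-like cells. Single clusters and the granule-rich MA9-like cells were not among these alternatives, and there some members fell under 2-fold while others stayed past it. In cluster 23 Slfn5 was at 1.59, Slfn8 at 1.16 and Slfn9 at 0.280. Among granule-rich MA9-like cells of marrow Slfn2 was at 1.36 and Slfn1 at 1.83. Under the alternatives, Slfn1 in MA9-like cells lay between 3.19 and 7.195, the latter after subtracting free RNA. Slfn2 in basophil-like cells was under 2-fold with classes from clusters, by each cell's own CPM and, lowest, at 1.74 after subtracting free RNA. The ratio of Prmt9 over all barcodes was 0.657 in marrow and 0.534 in spleen. Alternatives restricted to MA9-like cells of low granule score and leaving out erythroid-like cells were chosen after seeing the data. No paired analysis was possible because each group has 1 library.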
